A study of Mus musculus with 8 samples.

Results

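The loci of Otx2 and Otx1 were examined for binding of OTX2 in the embryonic mouse forebrain. Their members were all deposited peaks whose centre lay on chromosome 14 between 48980000 and 49580000 (Otx2, near 49.28 Mb) or on chromosome 11 between 21600000 and 22200000 (Otx1, near 21.90 Mb), in build mm9. These windows of 600 kb held 42 of the 26317 peaks in the 8 deposited lists, 28 at Otx2 and 14 at Otx1. The tissue was basal ganglia and septum of wild-type CD-1 embryos at E12.5, pooled from several embryos, which the series text describes as septum with medial and lateral ganglionic eminences. It was analysed by ChIP-seq in 3 libraries precipitated with an antibody against OTX2, 3 libraries of input chromatin without antibody, and 2 libraries precipitated with goat IgG (replicates 1 and 2). All groups were of this 1 strain, genotype, stage and tissue. Cells that contain OTX2 and cells that lack it cannot be separated in such a pool. A peak list holds neither marker genes nor read numbers, so the dissection could not be checked against markers and the depth of each library is unknown.

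OTX2 and OTX1 are the vertebrate counterparts of the fly head gene orthodenticle. They are homeodomain transcription factors of the bicoid type, which bind DNA with the core TAATCC. OTX2 is required for the formation of the forebrain and midbrain and later for the identity of ventral and midline territories, and OTX1 acts in cortical and sense organ development. Transcription of Otx2 in the head is known to be driven by several enhancers, some of them far from the gene. A factor bound at its own gene or at that of a relative is a candidate for autoregulation or cross-regulation. The positions of peaks alone do not show such regulation, which was not tested.

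The sequences below show where the letters of the OTX core stand beside Otx2 itself. No start site of Otx1 was among those available, so the sequence beside Otx1 was not searched. RefSeq (GRCm38.p6) gave 4 start sites for Otx2, all on the minus strand, and the 250 bases before each were searched on both strands for TAATCC, read as GGATTA on the other strand, and for the related letters TAAGCC, whose other strand reads GGCTTA. The core occurred once, before start site 3 of the table, where it began 211 bases upstream as GGATTA. The related letters occurred once, before start site 2, 102 bases upstream as GGCTTA. In each of the following runs the capitals mark these letters, first with 12 bases on either side and then in the whole 250 bases before start site 3.
Otx2 start site 2, chr14:48667593-48667622 (GRCm38.p6, minus strand): tattttccctctGGCTTAgatgtgtcaatc
Otx2 start site 3, chr14:48665303-48665332 (GRCm38.p6, minus strand): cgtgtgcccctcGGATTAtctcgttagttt
Otx2 start site 3, chr14:48665110-48665359 (GRCm38.p6, minus strand): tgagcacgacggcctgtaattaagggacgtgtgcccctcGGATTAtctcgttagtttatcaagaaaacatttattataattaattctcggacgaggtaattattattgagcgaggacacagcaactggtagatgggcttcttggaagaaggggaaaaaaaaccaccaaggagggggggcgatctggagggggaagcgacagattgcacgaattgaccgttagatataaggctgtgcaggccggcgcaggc
Such letters are common. TAATCC or GGATTA stood in 6.25% of the 32851 stretches of 250 bases before RefSeq start sites, TAAGCC or GGCTTA in 8.20%, and either of them in 13.9%. A match describes the sequence and is not evidence of a bound site. The peaks are in mm9 and these stretches in GRCm38.p6, so no peak was placed on them.

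OTX2 peaks lay at both loci in all 3 OTX2 libraries, with more of them at Otx2. At Otx2, replicate 1 had 4 peaks, replicate 2 had 2 and replicate 3 had 22. At Otx1, the numbers were 1, 1 and 12. The lists themselves differed in length, with 1848, 1298 and 22325 peaks for replicates 1, 2 and 3, so the numbers are not comparable between libraries. As a share of its own list, Otx2 took 0.216%, 0.154% and 0.0985% of the peaks of replicates 1, 2 and 3, and Otx1 took 0.0541%, 0.0770% and 0.0538%. In each of the 3 libraries the Otx2 window held more peaks than the Otx1 window. No test was made of this order, because the loci were chosen with earlier results of these data known.

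**Figure D1:**
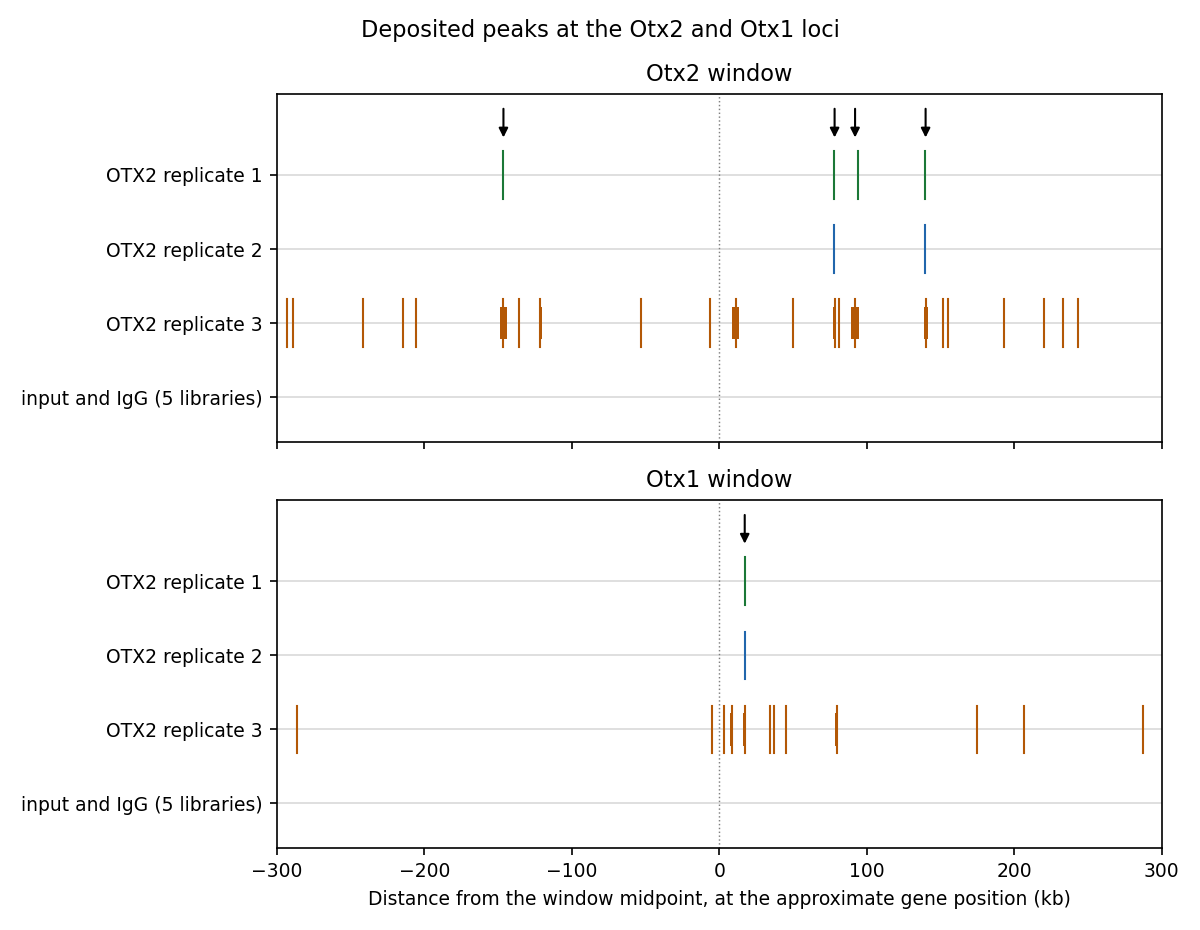
Peaks of each OTX2 library at the Otx2 window (top) and the Otx1 window (bottom), against distance in kb from the window midpoint, which is the approximate gene position. Boxes are drawn to scale with a thin line at each peak centre, arrows mark the 5 regions found in at least 2 OTX2 libraries, and the lane for the 5 input and IgG libraries is empty.

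None of the 846 peaks in the 3 input and 2 IgG lists lay in either window, which allows a share of up to 0.355% of control peaks (3 counts of the total, counting error only). The share of OTX2 peaks in the windows, 0.165%, is below this limit. The zero therefore does not show that control peaks fell here less often than OTX2 peaks. Control peaks were sparse throughout, and 10.9% of 4410 consecutive tiles of 600 kb along the genome held 1 or more. Most stretches of this length therefore had none either. The control peak nearest to the midpoint of a window lay 7247 kb away on chromosome 14 and 2795 kb away on chromosome 11.

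Peaks of different OTX2 libraries that shared at least 1 bp were joined into sites, 22 at Otx2 and 12 at Otx1. Every site contained exactly 1 peak of replicate 3. All 5 peaks of replicate 1 and all 3 peaks of replicate 2 in the windows lay wholly inside a replicate 3 peak. Over the whole lists, replicate 3 overlapped 87.9% of replicate 1 peaks and 92.1% of replicate 2 peaks by at least 1 bp. The share lying wholly inside was not counted over the lists. Replicate 3 peaks were also wider, with a median of 827 bp against 191 bp in replicate 1 and 182 bp in replicate 2. Replicate 2 overlapped 3 of the 5 replicate 1 peaks (43.0% over the whole list), and replicate 1 overlapped all 3 replicate 2 peaks (61.6% over the whole list). In the other direction, 5 of the 34 replicate 3 peaks were overlapped in replicate 1 (7.19% over the whole list) and 3 in replicate 2 (5.25%). Together 5 were overlapped in replicate 1 or 2, which is 14.7% (exact Clopper-Pearson 95% interval 4.95 to 31.1%) against 8.83% of its whole list. Intervals on shares of peaks cover counting error only, and neighbouring peaks of 1 library are not independent replicates, so no difference from the whole list is read from them.

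No site overlapped an input or IgG peak (0.420% of sites over the genome). Of the 34 sites, 5 had peaks from at least 2 OTX2 libraries and no control peak, and these are called regions. Over the genome 8.61% of 22629 sites were regions. Otx2 had 4 of them (18.2% of its 22 sites, interval 5.19 to 40.3%) and Otx1 had 1 (8.33% of 12, interval 0.211 to 38.5%). A region was found in all 3 libraries at 2 sites of Otx2 and 1 of Otx1, against 3.49% of sites over the genome. The other 2 regions of Otx2 came from replicates 1 and 3.

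The best-ranked region of the Otx2 locus lay on chromosome 14 from 49418501 to 49421249, about 140 kb above the approximate gene position. Distances of this kind are to a gene position given only to the nearest 0.01 Mb. This region ranked 305 in replicate 1, 56 in replicate 2 and 269 in replicate 3, which placed it in the first 16.5%, 4.31% and 1.20% of the 3 lists. Among the 3 replicate 2 peaks at the loci it was the best ranked. By the mean of its rank percentiles it was number 119 of the 789 regions found in all 3 libraries, and number 128 of all 1949 regions. The mean is taken over the libraries in which a region has a peak. Regions of 2 and of 3 libraries are therefore not on the same scale. The peak of replicate 1 ran from 49419381 to 49420145 and was 765 bp wide, a width reached by 2.38% of its list. The peak of replicate 2 ran from 49419356 to 49419772 (417 bp) and shared 392 bp with it, or 94.0% of the shorter peak.

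A second region found in all 3 libraries lay about 78 kb above the approximate Otx2 position, from 49357368 to 49358960. It ranked 335 in replicate 1, 962 in replicate 2 and 330 in replicate 3. In replicates 1 and 3 it stood close to the region at 140 kb, but in replicate 2 it stood in the lower part of the list, at 74.1%. The peaks of replicates 1 and 2 were 253 bp (49357826 to 49358078) and 134 bp (49357853 to 49357986) wide, beside list medians of 191 and 182 bp. The shorter of them lay entirely within the other, and their centres were 32 bp apart. Its mean rank percentile of 31.2 was near the median of all regions, 32.8, which mixes regions of 2 and of 3 libraries. Among the 789 regions in 3 libraries it was number 530.

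The region on the other side of Otx2 lay about 146 kb below the approximate gene position, from 49131447 to 49135786. It ranked 641 in replicate 1 and 864 in replicate 3 and had no peak in replicate 2. At 4340 bp in replicate 3 it was among the widest of its list, of which 0.354% were at least as wide. The replicate 1 peak spanned 259 bp (49132984 to 49133242), with its centre 504 bp from that of the replicate 3 peak. Of overlapping pairs of replicate 1 and replicate 3 peaks, 10.8% had centres at least as far apart.

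The fourth Otx2 region, from 49369600 to 49374494, lay about 92 kb above the approximate gene position and 10.6 kb beyond the end of the region at 78 kb. It ranked 1479 in replicate 3, with a width of 4895 bp (0.242% of the list at least as wide). Replicate 1 had a narrow peak of 146 bp there (49374225 to 49374370), ranked 1728 of 1848, and replicate 2 had none. That peak sat at the far end of the replicate 3 peak, 2250 bp from its centre and 124 bp from its end. Among 1626 overlapping pairs of replicate 1 and replicate 3 peaks the median distance between centres was 114 bp, and 1.23% of pairs were as far apart. When every peak was reduced to 200 bp around its centre, 2 of the 4 Otx2 regions were counted.

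The single Otx1 region lay on chromosome 11 from 21916062 to 21918385, about 17 kb above the approximate Otx1 position, and was found in all 3 libraries. It ranked 317 in replicate 1, 220 in replicate 2 and 339 in replicate 3. These are 17.2%, 16.9% and 1.52% of the lists, so the 2 shorter lists placed it at nearly the same place. Its peaks in replicates 1 and 2 were 330 bp (21917307 to 21917636) and 315 bp (21917437 to 21917751) wide and shared 200 bp, with centres 122 bp apart. In each of these 2 lists 18.8% of peaks were at least as wide. By mean rank percentile it was number 202 of the 789 regions in 3 libraries. In this order it followed the Otx2 region at 140 kb and preceded the one at 78 kb. Replicates 1 and 3 ranked all 3 of these within a short span, 305 to 335 and 269 to 339, and only replicate 2 spread them, from 56 to 962.

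**Figure D2:**
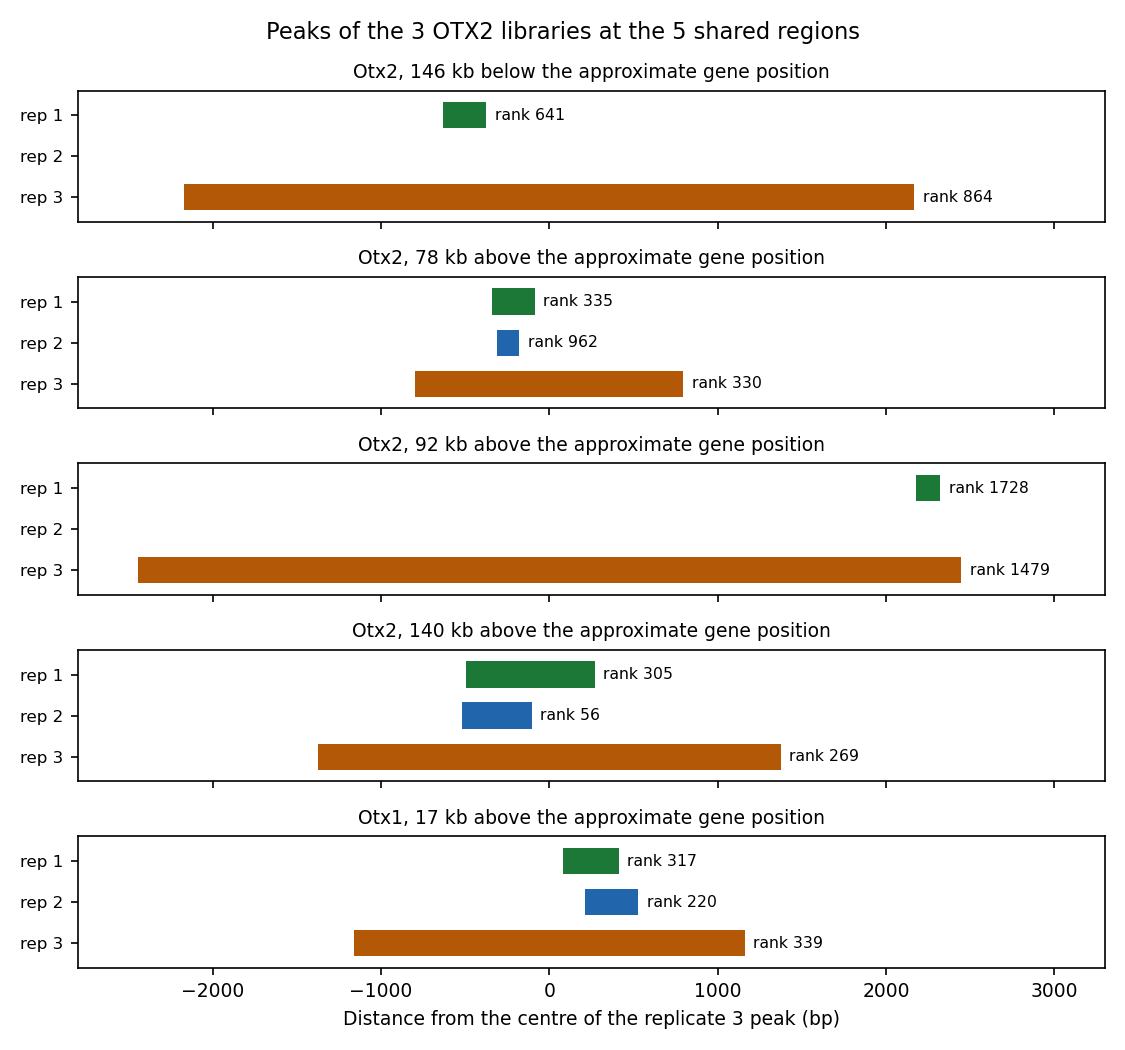
Extent of the peaks of replicates 1, 2 and 3 at the 5 regions, against distance in bp from the centre of the replicate 3 peak, with the rank of each peak in its list. Each replicate 1 or 2 peak lies inside the replicate 3 peak, and the replicate 1 peak at 92 kb lies 2250 bp from its centre.

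The remaining 29 sites, 18 at Otx2 and 11 at Otx1, were seen in replicate 3 only. The best ranked of them lay close to the Otx2 gene. It ran from 49288358 to 49293583, about 11 kb above the approximate gene position, and ranked 1020 (the first 4.57%). At 5226 bp it was the widest peak at either locus, and 0.193% of the replicate 3 list was at least as wide. Neither replicate 1 nor replicate 2 had a peak within it. Of all 1116 replicate 3 peaks in the first 5% of ranks, 87.6% were overlapped in replicate 1 or 2. At the loci this held for 4 of 5 peaks in that band, and the site at 11 kb was the exception. On the other side of the gene position, about 6 kb below it, the nearest peak ranked 20600 and was 590 bp wide.

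Next in rank at Otx2 among the sites of replicate 3 only was one at about 81 kb (49360219 to 49361425), ranked 2083 and 1207 bp wide. It lay 1.26 kb from the end of the region at 78 kb. After it came a site at about 155 kb (49434483 to 49435696), ranked 2274 and 1214 bp wide. Each lay above a region found in all 3 libraries, the second one after an intervening site of rank 4068 that began 9.65 kb from the end of the region at 140 kb. The other 15 sites of this kind at Otx2 ranked between 4068 and 21824.

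At Otx1 the best-ranked sites of replicate 3 only stood lower than at Otx2, but they were the best of 11 such sites rather than of 18. The median percentile of these sites was 43.1 at Otx1 and 48.9 at Otx2, the opposite order. A site about 79 kb above the approximate gene position (21978490 to 21980472) ranked 2680 and was 1983 bp wide. A site at about 174 kb (22074000 to 22074901) ranked 3705 and was 902 bp wide. Another, about 5 kb below the gene position (21894297 to 21895251), ranked 5540 and was 955 bp wide. Between it and the Otx1 region lay 2 more sites, at about 3 kb (rank 14517) and 8 kb (rank 6941). The one at 8 kb was the widest Otx1 peak, at 2552 bp, in spite of its middling rank.

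Over all members the ranks in replicate 3 ran from 269 to 21824 at Otx2, with a median percentile of 39.2, and from 339 to 17359 at Otx1, with a median of 41.8. The median of the whole list is at 50%. The sites of replicate 3 only had medians of 48.9 at Otx2 and 43.1 at Otx1, against 54.3 for all 20354 such sites of the genome. In the first 5% of ranks stood 4 Otx2 peaks and 1 Otx1 peak, in the next band to 10% 2 and none, and from 10% to 20% 2 at each locus. From 20% to 50% stood 6 Otx2 and 4 Otx1 peaks, and beyond 50% 8 and 5. Overlap in replicate 1 or 2 fell along these bands. It was 1 of 2 in the second band (41.5% over the list), 0 of 4 in the third (13.7%), 0 of 10 from 20% to 50% (2.76%) and 0 of 13 beyond 50% (0.340%).

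**Figure D3:**
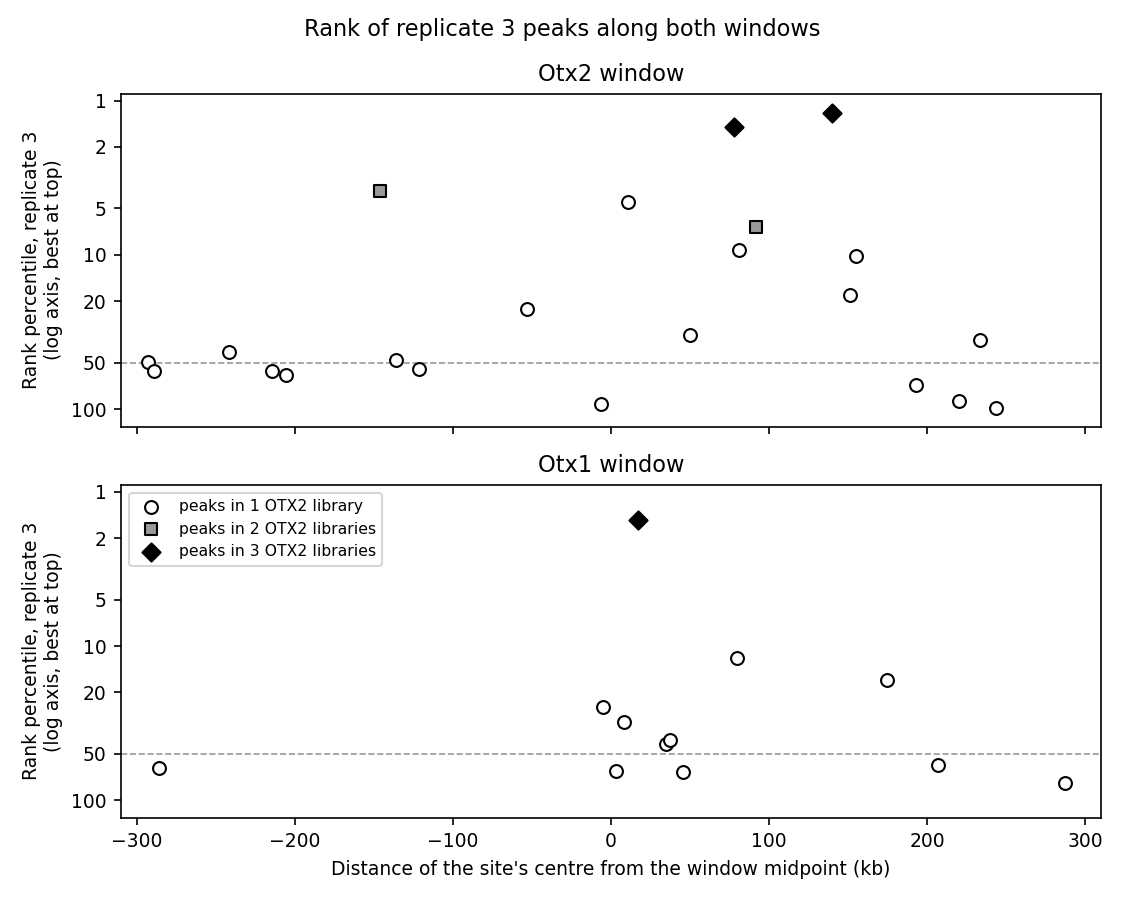
Rank percentile in replicate 3 (log axis, best at top) of every site against the distance in kb of its centre from the window midpoint, for Otx2 (top) and Otx1 (bottom). Symbols give the number of OTX2 libraries with a peak, the dashed line is the middle of the list, and the 3 sites found in 3 libraries lie at 1.20 to 1.52%.

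**Figure D4:**
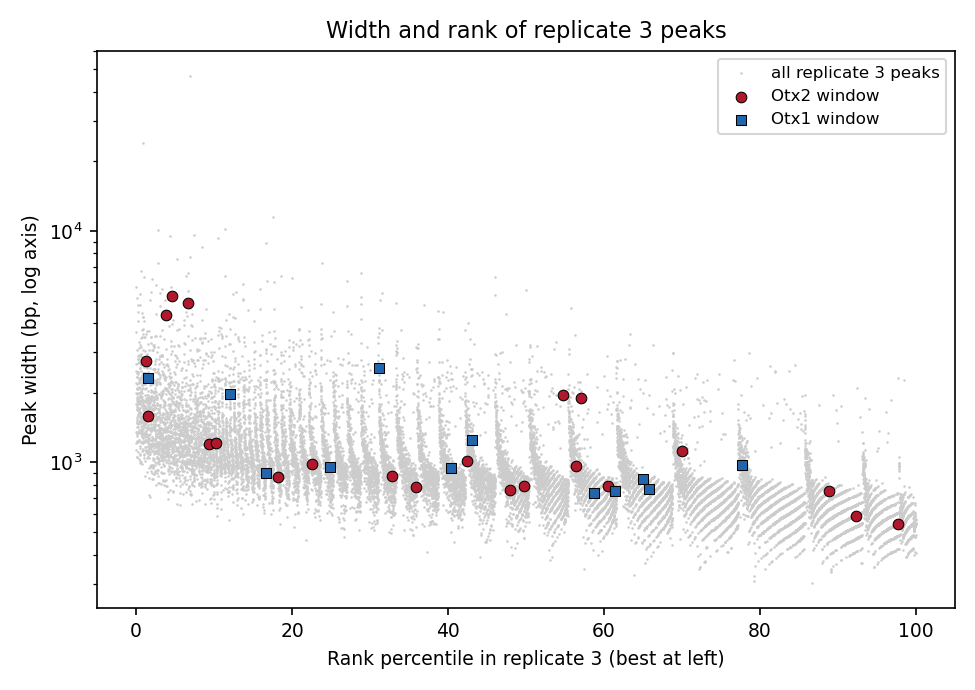
Width in bp (log axis) against rank percentile for all replicate 3 peaks (grey) and for the peaks of the Otx2 window (circles) and the Otx1 window (squares). The 3 widest Otx2 peaks, 4340 to 5226 bp, lie far above the list's median of 827 bp, and in the grey points width falls and returns in repeated steps along the ranks.

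Both windows were denser in replicate 3 peaks than most of the genome. The genome was divided into 4410 consecutive tiles of 600 kb. A tile had a median of 4 replicate 3 peaks, and 0.703% of tiles had 22 or more, the number at Otx2. For the 12 peaks of Otx1 the value was 9.80%. Tiles with at least 4 replicate 1 peaks, as at Otx2, made up 1.27%, and tiles with at least 2 replicate 2 peaks 5.37%. For the 1 peak of each of these libraries at Otx1 the values were 27.0% and 20.3%. At least 4 regions, the number at Otx2, stood in 1.41% of tiles, and at least 2 regions found in all 3 libraries in 3.15%. The first value rested on single libraries. Without replicate 1 Otx2 had 2 regions, a number reached by 4.81% of tiles, and without replicate 3 it also had 2, reached by 3.08%. At least 1 region, the number at Otx1, stood in 28.3% of tiles (13.1% without replicate 3), and at least 1 in all 3 libraries in 13.6%. Of the 1250 tiles that had any region, 4.96% had 4 or more. The tiles run from the start of each chromosome, whether or not peaks can be called there, and 756 held no replicate 3 peak. They also include gene-poor stretches, whereas both windows are centred on a gene. These shares therefore describe the position of the windows in the genome and are not a comparison with other genes.

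**Figure D5:**
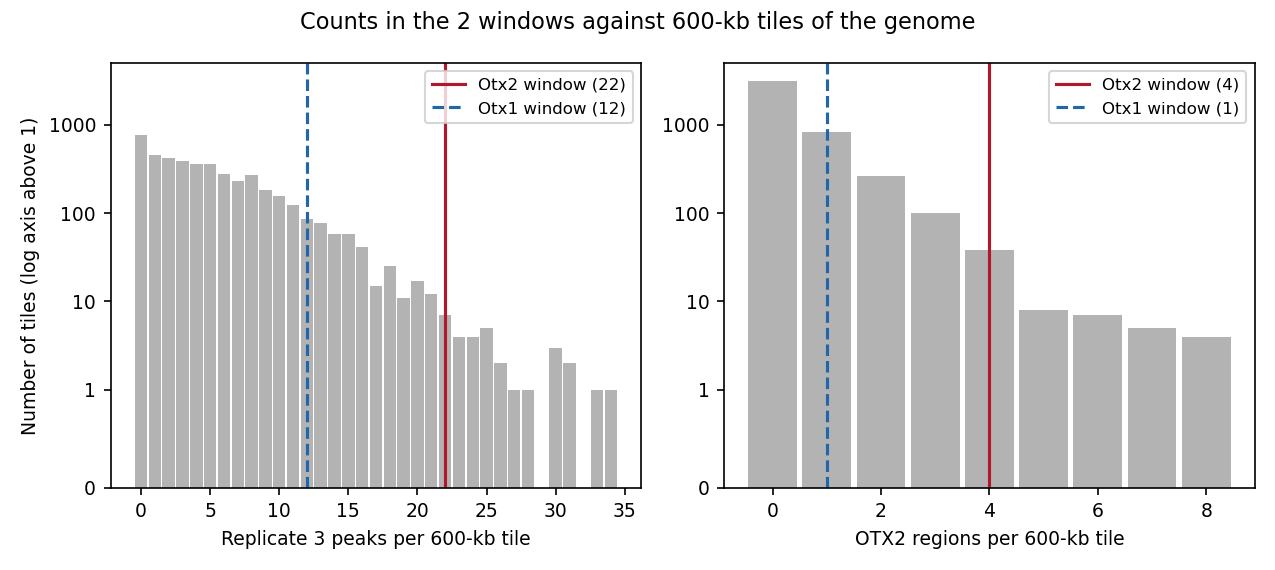
Number of 600-kb tiles of the genome (log axis above 1) by their count of replicate 3 peaks (left) and of OTX2 regions (right). The lines mark the Otx2 window, with 22 peaks and 4 regions, and the Otx1 window, with 12 peaks and 1 region.

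Sites were laid out differently along the windows. At Otx2 each of the 6 successive stretches of 100 kb held between 2 and 5 sites, and the 4 regions were in 3 of them. At Otx1, 7 of the 12 sites lay in the 100 kb from 21900001 to 22000000, which begins at the approximate gene position, and the stretch from 21700001 to 21800000 had none. Another replicate 3 peak within 10 kb was present for 14 of 22 peaks at Otx2 and 7 of 12 at Otx1, against 30.3% of the list. Spacing is not independent of the number of peaks in a window. The median gap to the nearest peak was 8.83 kb at Otx2, 7.28 kb at Otx1 and 21.9 kb over the list.

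Beyond the last Otx2 region the next region of chromosome 14 began 6.26 Mb further up, a gap matched or exceeded by 2.90% of the 1929 gaps between neighbouring regions. On the lower side the next region ended 459 kb from the first Otx2 region, a gap matched or exceeded by 52.2%. The Otx1 region was the only one in its window, with 1.38 Mb to the region below and 2.08 Mb to the region above. Gaps of at least these lengths made up 28.3% and 19.2% of all gaps, and the median gap over the genome was 519.5 kb. At the upper edge of the Otx2 window the last peak inside (49523192 to 49523735) ranked 21824. The first peak outside (49609834 to 49611717) ranked 1003 in replicate 3, so that the window ended short of a well-ranked peak. At the lower edge the peaks just inside and outside ranked 11102 and 20502. For Otx1 these ranks were 13724 and 11312 at the lower edge and 17359 and 3226 at the upper edge.

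Genes were placed only by their order in RefSeq's GRCm38.p6 table. There the protein-coding neighbours of Otx2 were Tmem260 and Exoc5, which encodes a subunit of the exocyst, and the non-coding gene Otx2os1 was listed next to Otx2. Those of Otx1 were Wdpcp, which acts in cilium formation and planar cell polarity, and Ehbp1. In that build Otx2 lies on the minus strand, so its upstream side has the higher coordinates. If this orientation holds in mm9, 3 of the 4 Otx2 regions lie upstream. No peak was assigned to Otx2, Otx1 or a neighbour, and whether any region coincides with a known Otx2 enhancer was not tested.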

How the data were processed

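The deposited files were 8 peak lists in BED form, 1 per library. Per the submitters' processing notes BWA, MACS 1.4 and build mm9 were used, without roles or parameters, while control, threshold and basis of the ranks were not given in the sources used here. Each peak carried only a position and a rank within its list, as deposited by the authors. Per the file headers, both lists of replicate 3 carry a tag that the other 6 lack, and their settings may differ. Per the labels' protocols, chromatin was fixed in 1.5% formaldehyde and libraries were sequenced as reads of 50 bp.

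Peaks were selected by centre, joined by an overlap of at least 1 bp, and counted in Python 3.11.15 (numpy 2.4.6, scipy 1.17.1, matplotlib 3.10.9). Overlaps were tested on simulated data, and 6 were checked with bedtools 2.31.1. Positions are mm9, 1-based. No significance test was made: the labels do not say that the replicates came from separate litters, and the members and the motif letters were chosen with earlier results of these data known. Sites in 2 or more OTX2 libraries were all described, and of those in replicate 3 only the best-ranked 3 of each locus, with further ones chosen after their values were seen. Alternatives covered the window, overlap, peak width, list length, number of libraries, control peaks, tile offset, rank summary and each replicate left out.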

Additional observations from a re-analysis of the deposited data

How the results depend on the processing

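Of 92 alternative values, 73 were classed as unchanged, 19 as moved and none as reversed. The first class still held sizeable shifts. At Otx1 the replicate 2 rank percentile was 10.9 among peaks of its chromosome, against 16.9 in the whole list, and was classed as unchanged. Many of the 73 could not have moved, so the tally does not measure robustness. Control counts of 0 stay 0 in a shorter list or a narrower window, and no site had a control peak. Every replicate 1 or 2 peak in the windows lay wholly inside a replicate 3 peak, so requiring an overlap of 50% changed nothing. With the better-ranked 50% of each list, replicates 2 and 3 had 1 and 14 peaks at Otx2, where 14 sites were left, and replicate 3 had 7 peaks at Otx1, where 7 sites were left. A window of 300 kb held 11 replicate 3 peaks at Otx2. At Otx1 it held 8 in place of 12, which was classed as unchanged. Otx2 had 2 regions when all 3 libraries were required, 22 when 1 was enough, and 2 with peaks reduced to 200 bp. Otx1 had 12 when 1 library was enough. Leaving out 1 OTX2 replicate gave 2 to 4 Otx2 regions, with 2 without replicate 1, 2 without replicate 3 and 4 without replicate 2. Otx1 kept a count of 1 each time, which was fixed in advance. Its region has peaks of all 3 libraries that overlap one another, so any 2 of them suffice. The share of tiles with at least as many regions ranged from 0.975% to 4.81% for Otx2 (4.81% without replicate 1, 3.08% without replicate 3) and from 13.1% to 24.2% for Otx1 (13.1% without replicate 3). The mean rank percentile of the 4 replicate 1 peaks at Otx2 was 40.7, against a median of 26.4. No paired analysis was possible because the results come from no test. Without read numbers, a missing peak in replicate 1 or 2 does not show absence of binding.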

Other observations

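In each of the 8 lists no peak lay less than 1000 bp from the next. The smallest gaps were 1001, 1073 and 1000 bp in OTX2 replicates 1, 2 and 3, between 1086 and 1185 bp in the input lists, and 1008 and 1020 bp in the IgG lists. Sites closer than this, if present inside the 5226, 4895 and 4340 bp peaks at Otx2, could not be counted separately in replicate 3.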
